A study of Homo sapiens with 15 samples.

Results

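The genes described here are 9 genes of retinoic acid synthesis and reception, ALDH1A3, DHRS3, RARA, RARB, RARG, RXRA, RXRB, CRABP2 and RDH10, out of the 18858 genes of the deposited count table. They were taken by their symbols, and each of the 9 had a row. ALDH1A3 and DHRS3 were picked because their RNA was higher after co-depletion of YAP and TAZ, so their differences that involve the siYAP+TAZ or siControl libraries are given as a description, without a test. No low-count filter was needed, since each of the 9 genes entered the fit.

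RNA was sequenced from the human breast adenocarcinoma line MDA-MB-231 in 5 groups of 3 libraries each. The groups were untransfected wild-type cells (Control, libraries 16, 21 and 26), wild-type cells given a pool of siRNAs without a target (siControl, libraries 17, 22 and 27), cells transfected with a pool against YAP1 (siYAP, libraries 18, 23 and 28), cells transfected with a pool against WWTR1, which encodes TAZ (siTAZ, libraries 19, 24 and 29), and cells given both pools (siYAP+TAZ, libraries 20, 25 and 30). The knockdown lasted 48 h, and the cells then stood on gelatin for 5 to 6 h. Each pool was added at the same concentration, so the effect of the larger total amount of siRNA and that of the co-depletion cannot be told apart, and all cells belong to 1 line and its wild-type or siRNA-treated cultures.

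Retinoic acid is made from vitamin A in a pair of oxidation steps. RDH10 oxidizes retinol to retinaldehyde, DHRS3 reduces retinaldehyde back to retinol, and the retinaldehyde dehydrogenases, of which ALDH1A3 is a member, oxidize retinaldehyde irreversibly to retinoic acid. CRABP2 carries retinoic acid to the nucleus, where heterodimers of a retinoic acid receptor (RARA, RARB or RARG) and a retinoid X receptor (RXRA or RXRB) bind DNA and switch from repression to activation when the ligand is bound. YAP and TAZ are the transcriptional coactivators restrained by the Hippo pathway, and they bind DNA through the TEAD factors.

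Sequences before the start sites of ALDH1A3 and DHRS3 are shown because these are the genes picked for the same rise, and the retinoic acid response element of RARB is shown as the textbook example of the element that the receptors bind. All were taken from RefSeq on GRCh38.p14 and are written 5′ to 3′ on the strand of the gene. Those of ALDH1A3 and DHRS3 leave out annotated exon bases, whereas the RARB element comes from a window of 250 bases of which 204 are annotated as exon. Capitals mark a match on either strand to CATTCC, the TEAD motif, or to one of AGGTCA, its variant AGTTCA and its variant GGTTCA, the units that make up retinoic acid response elements. The stretches are chr15:100879581-100879812 (plus strand, ALDH1A3), chr1:12618211-12618460 (minus strand, first start of DHRS3), chr1:12616796-12617039 (minus strand, second start of DHRS3) and chr3:25428210-25428226 (plus strand, RARB).
ALDH1A3: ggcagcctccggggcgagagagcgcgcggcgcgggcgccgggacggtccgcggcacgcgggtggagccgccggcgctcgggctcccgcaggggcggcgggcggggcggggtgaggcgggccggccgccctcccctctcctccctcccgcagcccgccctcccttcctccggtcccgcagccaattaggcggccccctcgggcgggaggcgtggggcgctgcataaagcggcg
DHRS3, first start: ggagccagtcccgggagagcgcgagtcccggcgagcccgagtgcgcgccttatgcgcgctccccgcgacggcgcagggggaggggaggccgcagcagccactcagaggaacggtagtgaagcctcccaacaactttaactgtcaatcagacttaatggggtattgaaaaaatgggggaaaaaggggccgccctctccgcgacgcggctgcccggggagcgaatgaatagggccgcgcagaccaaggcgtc
DHRS3, second start: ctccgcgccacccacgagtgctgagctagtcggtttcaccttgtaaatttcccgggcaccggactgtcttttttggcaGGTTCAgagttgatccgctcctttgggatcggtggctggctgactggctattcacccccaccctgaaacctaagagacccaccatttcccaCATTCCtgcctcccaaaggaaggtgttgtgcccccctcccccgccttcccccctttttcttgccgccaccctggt
RARB element: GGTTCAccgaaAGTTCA
The bases before the listed start of ALDH1A3 and before the first start of DHRS3 held none of these letters. The ALDH1A3 stretch lies within the span of the gene given below, and bases before that span were not searched. The window of ALDH1A3 was 82.4% G and C against a median of 58% over all 35116 windows of 250 bases. The window of the second DHRS3 start held GGTTCA 172 bases and CATTCC 81 bases before the start. The window of another DHRS3 start, chr1:12596614-12596863, which is not printed, held CATTCC 13 bases and AGGTCA, on the opposite strand, 171 bases before its start. CATTCC was found in 11.9%, AGGTCA in 12.1%, AGTTCA in 8.8% and GGTTCA in 7.16% of all windows, so a match is common, and gene-level counts do not tell which start was used. The RARB element, which begins 53 bases before a start, has its units in the same direction with a spacer of 5 bases. This arrangement (with GGGTCA also allowed as a unit) was present in 26 windows, 0.074% of all, and RARB was the only one of the 9 genes with it in a window listed.

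Library totals ran from 18696737 to 30107312 counted reads, with a median of 22902846. The target RNAs were lower in their groups to different degrees. YAP1 stood at 17.6% to 64.0% of the siControl mean in the siYAP libraries and at 41.5% to 51.8% in the siYAP+TAZ libraries. WWTR1 stood at 14.1% to 45.8% in the siTAZ libraries and at 62.1% to 71.0% in the siYAP+TAZ libraries, where the remaining TAZ RNA was higher than in any siTAZ library. By edgeR only the difference of WWTR1 in siTAZ passed the threshold (adjusted p = 0.019), with adjusted p = 0.099 for YAP1 in siYAP and 0.072 and 0.20 for YAP1 and WWTR1 in siYAP+TAZ. The siYAP value of 64.0% was that of library 23. The paper reports efficient knockdown of both by RT-qPCR and western blot. It also names YAP1 among the molecules that differed in both its transcript and its protein data. The epithelial and mesenchymal markers of the line were abundant, with VIM at 24540 or more and KRT18 at 4893 or more normalized counts in every library, and PGR, which this line lacks, reached at most 7 counts. Of 11 markers of immune, endothelial, fibroblast and adipocyte cells, 6 had a row, and their summed level was 437 to 678 normalized counts in siControl and 652 to 717 in siYAP+TAZ. The largest parts moved in opposite directions. COL1A1 averaged 369 in siControl and 495 in siYAP+TAZ, and KDR averaged 162 and 133. Neither passed the adjusted p between these groups by edgeR. PTPRC, the pan-leukocyte marker, was near 0, while CD14 passed both thresholds (adjusted p = 0.0020) with 16.7 and 38.4 normalized counts on average in these groups; the part of these markers in the results below was not tested. In bulk RNA, more expressing cells and more RNA per cell cannot be told apart. The study describes 3 independent sets of experiments, but the labels do not say which libraries belong to which set, so the p-values measure the spread between these libraries.

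Values are counts normalized to a common library size, and differences are log2 fold changes from edgeR's quasi-likelihood test over all 18858 genes, with Benjamini-Hochberg adjustment.

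**Figure D1:**
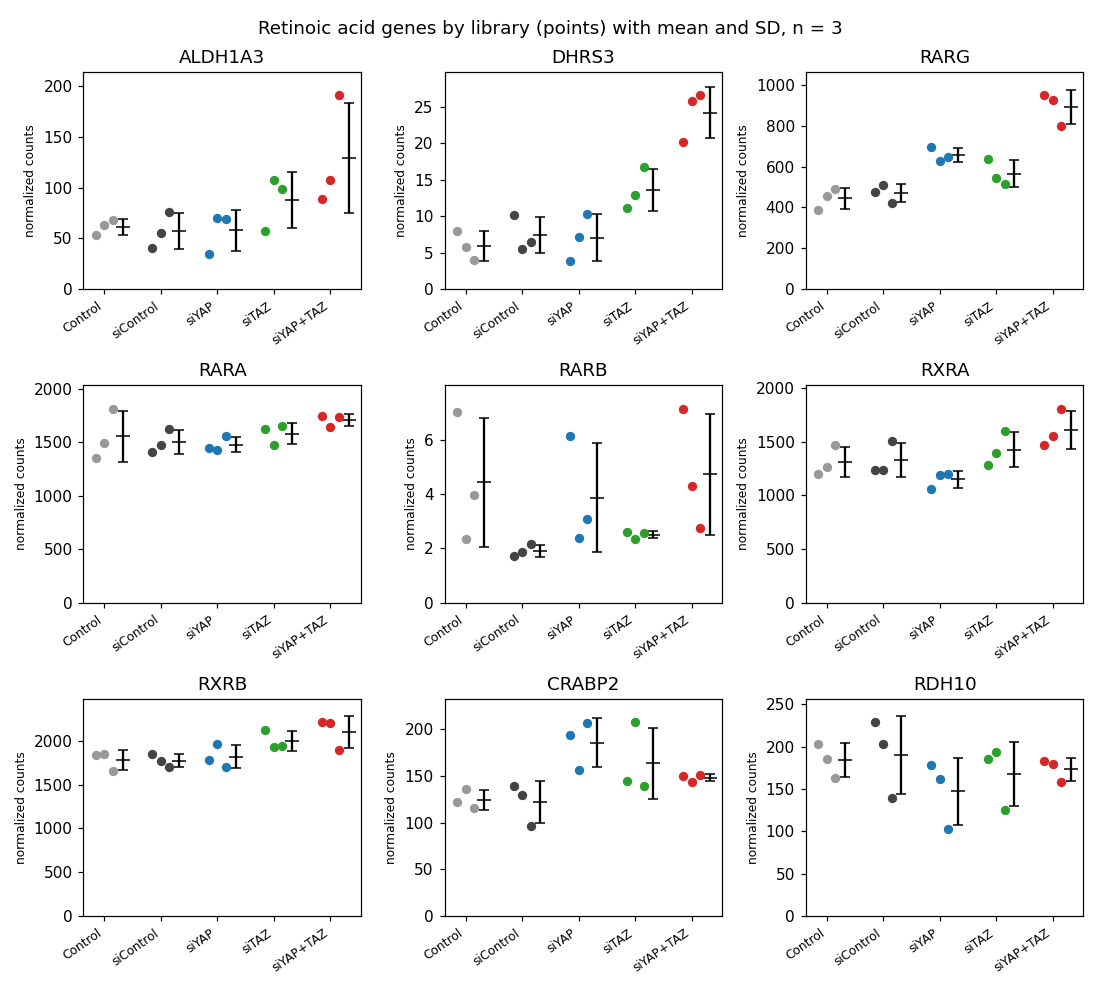
Normalized counts (vertical axes, starting at 0) of the 9 retinoic acid genes in the 5 groups; each point is a library and the bar beside it the mean ± SD (n = 3). In siYAP+TAZ, RARG had 798 to 950.1 normalized counts, and every gene but CRABP2 and RDH10 had its highest group mean there. Of these genes, ALDH1A3, RARA, RARB, RXRA and RXRB overlapped there with another group, RARB with Control and siYAP.

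Among the enzymes of retinaldehyde metabolism, RDH10 (chr8:73294602-73325281, plus strand of GRCh38, as all coordinates below), the retinol dehydrogenase, had 229, 202.5 and 139 normalized counts in the siControl libraries and 183, 179 and 158 in siYAP+TAZ. These ranges overlap, and so did those of siYAP (178, 161 and 103) and siTAZ (185, 193 and 125). Its log2 fold change was -0.14 (SE 0.21) in siYAP+TAZ and -0.37 (SE 0.21) in siYAP against siControl, with adjusted p = 0.70 and 0.52 by edgeR, and the 95% interval in siYAP+TAZ ran from -0.58 to 0.29. Of its exonic bases 5.21% lie opposite RDH10-AS1, and whether reads were counted by strand is not stated.

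DHRS3 (chr1:12567910-12618210, minus strand), the retinaldehyde reductase, was a low gene with raw counts of 12, 6 and 6 in siControl against 17, 24 and 29 in siYAP+TAZ. In normalized counts, Control had 7.99, 5.83 and 3.94, siControl 10.2, 5.55 and 6.44, and siYAP 3.83, 7.15 and 10.3. The siTAZ libraries had 11.2, 12.9 and 16.7 and the siYAP+TAZ libraries 20.2, 25.8 and 26.6. Every siTAZ library was above every library of the Control, siControl and siYAP groups, and every siYAP+TAZ library was above every siTAZ library. Of all genes, 10.7% had all siTAZ libraries above those of siControl, 9.38% had them above those of siYAP, and 11.6% had all siYAP+TAZ libraries above those of siTAZ.

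Described without a test, the log2 fold change of DHRS3 was 1.68 (SE 0.36) in siYAP+TAZ, 0.83 (SE 0.40) in siTAZ and -0.12 (SE 0.42) in siYAP against siControl. Between siYAP+TAZ and each single knockdown it was 1.80 (SE 0.36) against siYAP and 0.85 (SE 0.34) against siTAZ. The comparisons that use neither the siYAP+TAZ nor the siControl libraries can be tested. In siTAZ against Control the difference was 1.13 (SE 0.43), with adjusted p = 0.154 by edgeR, and the groups did not overlap, which held in the upward direction for 10.5% of all genes. In siYAP against siTAZ it was -0.95 (SE 0.40), with adjusted p = 0.30, and in siYAP against Control 0.18 (adjusted p = 0.94). None of these passed the threshold after adjustment.

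ALDH1A3 (chr15:100877714-100916626, plus strand), the dehydrogenase that makes retinoic acid, had 53.0, 63.0 and 68.4 normalized counts in Control, 40.8, 55.5 and 76.2 in siControl and 34.5, 69.9 and 68.8 in siYAP. The siTAZ libraries had 56.8, 108 and 99.0, and the siYAP+TAZ libraries had 89.2, 107 and 191. The siYAP+TAZ libraries were above all siControl, siYAP and Control libraries but overlapped with siTAZ, and library 30 was the highest by far. All siYAP+TAZ libraries were above those of siControl for 18.2% of all genes and above those of siYAP for 13%.

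Described without a test, its log2 fold change was 1.19 (SE 0.33) in siYAP+TAZ, 0.61 (SE 0.34) in siTAZ and 0.0085 (SE 0.35) in siYAP against siControl. Without library 30 of siYAP+TAZ the first value was 0.80, the lowest of the 6 fits with a library left out, which reached 1.44. Libraries 26 of Control and 27 of siControl, numbered in a run with library 30, were also the highest of their groups. Libraries 28 of siYAP and 29 of siTAZ were not, and the labels do not say that a run is a set. Against the single knockdowns, siYAP+TAZ differed by 1.18 (SE 0.33) from siYAP and by 0.58 from siTAZ, and these values were 0.77 and 0.19 without library 30. The tested comparisons did not pass: siYAP against siTAZ gave -0.60 (SE 0.34, adjusted p = 0.47 by edgeR), siTAZ against Control 0.50 (SE 0.35, adjusted p = 0.46) and siYAP against Control -0.093 (adjusted p = 0.96). With a block by the run of library numbers, siYAP against siTAZ passed, as given in the last section. The antisense gene ALDH1A3-AS1 covers 32.1% of the exonic bases of ALDH1A3, so these reads may belong to either gene.

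**Figure D2:**
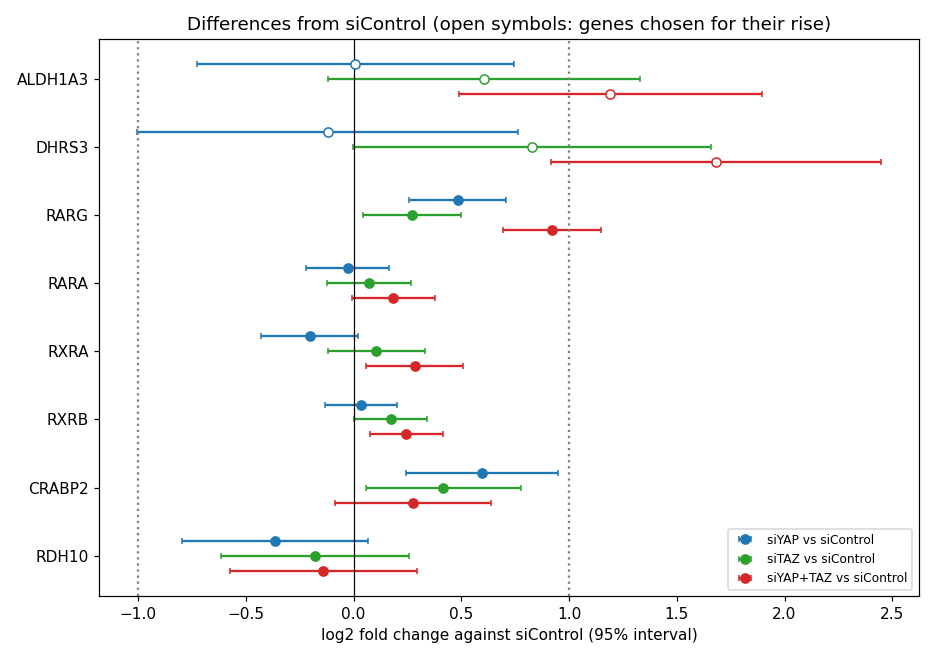
Log2 fold changes against siControl (horizontal axis) with 95% intervals for 8 genes in siYAP, siTAZ and siYAP+TAZ; open symbols mark ALDH1A3 and DHRS3, which were picked for their rise and have no test, dotted lines mark a log2 fold change of 1 in either direction, and RARB is left out because of its low counts. The siYAP+TAZ values of RARG (0.92), ALDH1A3 (1.19) and DHRS3 (1.68) lie farthest from 0.

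The binding protein CRABP2 (chr1:156699606-156705816, minus strand) was highest on average after siYAP alone. It had 139, 129 and 96.6 normalized counts in siControl, 194, 156 and 206 in siYAP, 145, 207 and 139 in siTAZ and 149.8, 144 and 150.5 in siYAP+TAZ. The siYAP libraries were all above those of siControl, as held for 9.65% of all genes, and above those of siYAP+TAZ, as held for 11.7%, while the siTAZ libraries spread over both. Its log2 fold change against siControl was 0.60 (SE 0.17) in siYAP, 0.42 (SE 0.17) in siTAZ and 0.28 (SE 0.17) in siYAP+TAZ, with adjusted p = 0.107, 0.23 and 0.31 by edgeR. The first of these was past the threshold with DESeq2 (adjusted p = 0.045). The interaction, the value in siYAP+TAZ less the sum of those after the single knockdowns, was -0.74 (SE 0.24, adjusted p = 0.63) and did not pass after adjustment.

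Among the 7 genes that were not picked for their rise, RARG had the smallest adjusted p. RARG (chr12:53210567-53232980, minus strand, with no exonic overlap on the opposite strand) encodes retinoic acid receptor gamma. Control libraries had 389.7, 458 and 489 normalized counts, siControl 475, 512 and 424, and siTAZ 639, 546 and 514. The siYAP libraries had 696, 629 and 648, and the siYAP+TAZ libraries 950.1, 927 and 798. Every knockdown library was above every Control and siControl library, which held against siControl for 18.2% of all genes with siYAP+TAZ, for 9.65% with siYAP and for 10.7% with siTAZ. Every siYAP+TAZ library was also above every library of the single knockdowns, which held for 13% of all genes against siYAP and for 11.6% against siTAZ.

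RARG rose in siYAP+TAZ against siControl by 0.92 on the log2 scale (SE 0.11, adjusted p = 1.3e-05 by edgeR), from 470.5 ± 44.5 to 892 ± 81.8 normalized counts (SD, n = 3 each). The difference was 0.85 to 1.002 when 1 library was left out and passed the adjusted p each time. RARG also rose in siYAP+TAZ against Control, by 1.002 (SE 0.11, adjusted p = 5.8e-06), and against siTAZ, by 0.65 (SE 0.11, adjusted p = 0.0018), and both differences passed the adjusted p without any 1 library. Against siYAP the difference was 0.44 (SE 0.11, adjusted p = 0.021), but adjusted p went up to 0.091 when library 23 or 28 of siYAP or library 20 or 25 of siYAP+TAZ was left out.

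After the single knockdowns the differences of RARG were smaller. In siYAP against siControl RARG rose by 0.48 (SE 0.11, adjusted p = 0.038 by edgeR), and this call was lost without any 1 of the 6 libraries, with adjusted p up to 0.163. Against Control the siYAP value was 0.57 (SE 0.11, adjusted p = 0.013), and it was lost (adjusted p up to 0.076) without library 16 of Control or 18 of siYAP. In siTAZ the difference was 0.27 (SE 0.11, adjusted p = 0.22) against siControl and 0.35 (adjusted p = 0.084) against Control, and the latter passed without library 26 of Control (0.42, adjusted p = 0.043). The single knockdowns did not differ from each other past the threshold (0.21, adjusted p = 0.40), and the log2 fold change in siYAP+TAZ did not depart from the sum of the single ones past the threshold (interaction 0.17, SE 0.15, adjusted p = 0.94, 95% interval -0.15 to 0.49). Transfection itself, siControl against Control, gave 0.082 (SE 0.11).

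RARA (chr17:40309180-40357643, plus strand), receptor alpha, had 1410, 1474 and 1626 normalized counts in siControl and 1744, 1644 and 1737 in siYAP+TAZ, which did not overlap, as held for 18.2% of all genes in the upward direction. Its log2 fold change was 0.18 (SE 0.092, adjusted p = 0.19 by edgeR), with a 95% interval from -0.0081 to 0.38. The Control libraries alone spread from 1356 to 1813. Antisense genes cover 21.4% of the exonic bases of RARA.

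RARB (chr3:24687887-25597932, plus strand), receptor beta and itself a textbook target of retinoic acid, was close to the detection limit. The raw counts were 7, 2 and 3 in Control, 2, 2 and 2 in siControl, 8, 3 and 3 in siYAP, 3, 2 and 2 in siTAZ and 6, 4 and 3 in siYAP+TAZ. Over the summed counts, siYAP+TAZ stood at 2.41 times siControl (13 against 6 counts, exact 95% counting interval 0.856 to 7.75) and at 0.99 times Control (13 against 12, interval 0.417 to 2.38). A difference was not detectable at this depth, and the intervals cover counting error only.

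The retinoid X receptors were both abundant. RXRB (chr6:33193588-33200665, minus strand, 9.26% of exonic bases opposite SLC39A7) had 1852, 1774 and 1697 normalized counts in siControl and 2213, 2204 and 1896 in siYAP+TAZ. It rose by 0.25 (SE 0.080, adjusted p = 0.039 by edgeR), but the call was lost (adjusted p up to 0.147) when any library other than 30 of siYAP+TAZ was left out. Against Control the value was 0.24 (adjusted p = 0.043), which was also lost (adjusted p up to 0.155) without each of the libraries other than library 30. The siTAZ libraries, at 2128, 1930.2 and 1938, were all above those of siControl, as held for 10.7% of all genes.

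RXRA (chr9:134317098-134440585, plus strand) had 1237, 1234 and 1509 normalized counts in siControl, 1062, 1192 and 1203 in siYAP, 1286, 1392 and 1603 in siTAZ and 1473, 1556 and 1809.6 in siYAP+TAZ. The siYAP libraries were all below siControl, as held for 9.86% of all genes, and the siYAP+TAZ libraries overlapped with it. Against siControl the log2 fold change was 0.28 (SE 0.11, adjusted p = 0.075) in siYAP+TAZ and -0.20 (SE 0.11, adjusted p = 0.48) in siYAP, neither past the threshold by edgeR. The siYAP+TAZ value passed with library size alone as the scale (0.33, adjusted p = 0.021) and without library 27 of siControl (0.39, adjusted p = 0.027). Against Control it was 0.30 (adjusted p = 0.057), and it passed with library size alone (adjusted p = 0.014), after filterByExpr (adjusted p = 0.049) and without library 26 of Control (adjusted p = 0.021) or library 20 of siYAP+TAZ (adjusted p = 0.049). RXRA rose in siYAP+TAZ against siYAP by 0.49 (SE 0.11, adjusted p = 0.012), a call lost (adjusted p up to 0.075) without library 18 of siYAP or 30 of siYAP+TAZ. The interaction was 0.38 (SE 0.15, adjusted p = 0.75). With a block by the run of library numbers, further RXRA differences passed, among them the interaction, as given in the last section.

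Counted over the 7 genes not picked for their rise, in siYAP+TAZ against siControl 2 (RARG and RXRB) passed the adjusted p, against 18.4% of all genes, and 0 passed an absolute log2 fold change of 1 as well, against 3.46%. At an unadjusted p under 0.05 there were 3 (RARG, RXRA and RXRB), and no share over all genes is given for that limit. DESeq2 gave 2 past its adjusted p and 0 past both thresholds, which 616 of all genes passed. Without library 30 of siYAP+TAZ, RARG passed both, so the count was 1. Against Control, RARG passed both thresholds and RXRB the adjusted p, against 3.79% and 19.4% of all genes, and the first count was 0 without library 16 of Control or library 20 or 25 of siYAP+TAZ. RARG thus lay at the border of the fold threshold in both comparisons.

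In siYAP against siControl, RARG alone passed the adjusted p (0.933% of all genes did), and in siTAZ against siControl 0 of 7 did (2.03% of all genes), with 3 at an unadjusted p under 0.05 by edgeR. DESeq2 also gave 0 past its adjusted p. RARG and RXRA passed in siYAP+TAZ against siYAP (5.13% of all genes) and RARG in siYAP+TAZ against siTAZ (5.44%) and in siYAP against Control (1.46%). In siYAP against siTAZ and siTAZ against Control, where all 9 genes were tested, 0 passed by edgeR or by DESeq2, against 0.642% and 3.4% of all genes. At an unadjusted p under 0.05 there were 2 (DHRS3 and RXRA) and 3 (DHRS3, CRABP2 and RARG). With a block by the run of library numbers, edgeR gave calls in both comparisons, as listed in the last section. The shares over all genes are those at the adjusted p. None is given for an unadjusted p, so the counts at that limit are descriptions only. These comparisons share libraries, so their counts are not independent.

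Levels can be compared between genes only per length. In CPM per kb of exons, the siControl means were 19.3 for RXRB, 13.4 for RARA, 4.76 for CRABP2, 4.65 for RXRA and 3.88 for RARG. RDH10 followed with 1.51, ALDH1A3 with 0.456, DHRS3 with 0.089 and RARB with 0.0085. In siYAP+TAZ, RARG (7.36 ± 0.674, SD, n = 3) stood above CRABP2 (5.79 ± 0.141) and RXRA (5.65 ± 0.614), whereas in siControl RARG (3.88 ± 0.367) was below CRABP2 (4.76 ± 0.878) and RXRA (4.65 ± 0.554). Within siControl the gaps to CRABP2 and to RXRA were each smaller than the sum of the SDs.

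Of the summed RAR level per length, RARG made up 21.0% ± 1.09 in Control, 22.5% ± 2.69 in siControl, 29.2% ± 1.54 in siYAP, 24.9% ± 2.26 in siTAZ and 32.5% ± 2.37 in siYAP+TAZ (SD, n = 3 each). RARA made up nearly all of the rest, from 78.9% in Control to 67.4% in siYAP+TAZ, and RARB at most 0.118% on average in any group. The siYAP+TAZ shares of RARG (29.8% to 34.3%) did not overlap with those of siControl (19.4% to 24.3%). The siYAP shares (27.8% to 30.8%) did not overlap with siControl either, and they overlapped with siYAP+TAZ. The share of RXRA in the summed RXR level stayed between 17.0% and 19.9% on average, and its libraries overlapped between all pairs of groups that include siControl.

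**Figure D3:**
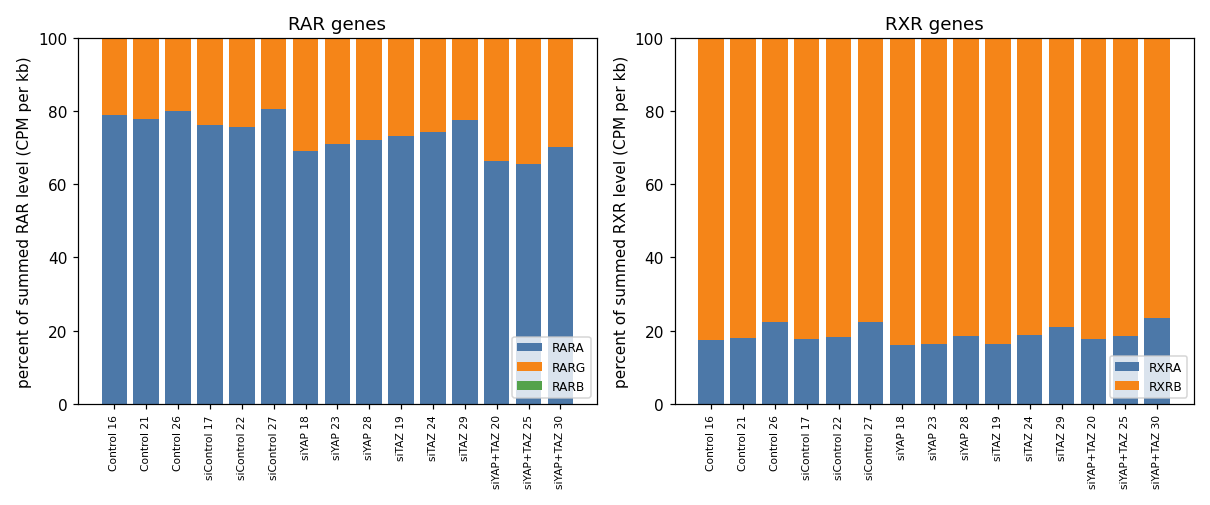
Shares of the summed RAR level (left) and RXR level (right) in percent, from CPM per kb of exons, in each of the 15 libraries; stacked bars add up to 100%, and RARB is too low to be seen. The RARG share was 32.5% on average in siYAP+TAZ and 22.5% in siControl.

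Of 61 other entries for retinoid uptake, metabolism, breakdown, signalling and response, 30 were analysed here. In siYAP+TAZ against siControl 6 of these passed the adjusted p, all upward, against 9.97% of all genes upward, and 2 passed both thresholds, against 3.14%, with a median log2 fold change of 0.15 against -0.0048 over all genes. In siYAP against siControl 0 passed the adjusted p by edgeR or by DESeq2, against 0.933% of all genes by edgeR. There, 3 had an unadjusted p under 0.05, a limit for which no share over all genes is given. In siTAZ against siControl 1 passed the adjusted p, against 2.03% of all genes. In siYAP+TAZ against Control 7 passed the adjusted p, again all upward, and 3 passed both thresholds, against 19.4% and 3.79% of all genes in either direction.

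Those past both thresholds were a retinoic acid responsive gene and a retinaldehyde reductase. PLAAT4, also named RARRES3 for its induction by retinoids, had 61.8 ± 17.2 normalized counts in siControl, 85.9 ± 24.8 in siYAP, 112 ± 25.6 in siTAZ and 188 ± 69.3 in siYAP+TAZ (SD, n = 3). It rose in siYAP+TAZ against siControl by 1.63 (SE 0.28, adjusted p = 6.1e-04 by edgeR) and against siYAP by 1.15 (SE 0.27, adjusted p = 0.019), and the latter was lost (adjusted p up to 0.1004) without library 18 or 23 of siYAP or library 30 of siYAP+TAZ. AKR1B10, an aldo-keto reductase that reduces retinaldehyde, had 7.04 ± 2.38 in siControl and 24.1 ± 6.32 in siYAP+TAZ, and it rose by 1.73 (SE 0.47, adjusted p = 0.013). That call was lost (adjusted p up to 0.064) without library 27 of siControl or library 25 of siYAP+TAZ. Its relative AKR1C3 passed both thresholds in siYAP+TAZ against Control (1.08, adjusted p = 0.0065), and against siControl it had a log2 fold change of 0.66 (adjusted p = 0.069), which passed with DESeq2 (adjusted p = 0.019), after filterByExpr (adjusted p = 0.04998) and without robust estimation (adjusted p = 0.045). Of the 12 retinol and retinal oxidoreductases analysed, AKR1B10 alone passed the adjusted p against siControl by edgeR. The abundant AKR1B1 (0.083), RDH11 (0.31), ADH5 (-0.068) and RDH14 (-0.027) did not (adjusted p = 0.69, 0.081, 0.61 and 0.91).

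RARRES2, which encodes the retinoid-responsive chemoattractant chemerin, rose from 102 ± 13.9 to 189.8 ± 40.4 normalized counts, by 0.90 (SE 0.20, adjusted p = 0.0038 by edgeR). In siTAZ it was at 177 ± 22.8, a rise of 0.79 (adjusted p = 0.049) that was lost (adjusted p up to 0.222) when any library other than 19 of siTAZ was left out, and also without robust estimation (adjusted p = 0.057). TGM2, the retinoid-inducible transglutaminase, was far more abundant, with 22120 ± 3569 in siControl and 21908 ± 1638 in siYAP+TAZ, and TNFAIP2 had 3070 ± 504 and 3062 ± 405. The retinoic acid hydroxylase CYP26B1 had 601 ± 57.3 and 623 ± 98.2, a difference of 0.048 (adjusted p = 0.83), and ALDH1A2, another retinaldehyde dehydrogenase, had 8.54 ± 2.57 and 9.82 ± 2.66. From the lists for uptake, storage and delivery, LIPE, DGAT1 and FABP5 differed by -0.33, 0.056 and -0.16 in siYAP+TAZ against siControl (adjusted p = 0.14, 0.69 and 0.47 by edgeR). CYP26A1, ALDH1A1 and STRA6 were not analysed here.

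Of 8 receptor partners and coregulators, 7 were analysed here, and 3 of them passed the adjusted p upward in siYAP+TAZ against siControl, where 9.97% of all genes did. The coactivator EP300 rose by 0.23 (adjusted p = 0.022 by edgeR). The steroid receptor coactivators NCOA2 and NCOA3, named after their values were seen, rose by 0.39 (adjusted p = 0.0044) and 0.33 (adjusted p = 0.012). Only the call of NCOA2 held without each of the 6 libraries; adjusted p went up to 0.082 for EP300 and 0.066 for NCOA3. NCOR1 had 3743 ± 63.2 and 3965 ± 203 normalized counts, and CREBBP had 2841 ± 75.3 and 3033 ± 79.9 (SD, n = 3 each). NRIP1, a ligand-dependent corepressor named after its values were seen, was the one with a lower mean, with 246 ± 30.0 in siControl and 207 ± 36.1 in siYAP+TAZ (adjusted p = 0.23).

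**Figure D4:**
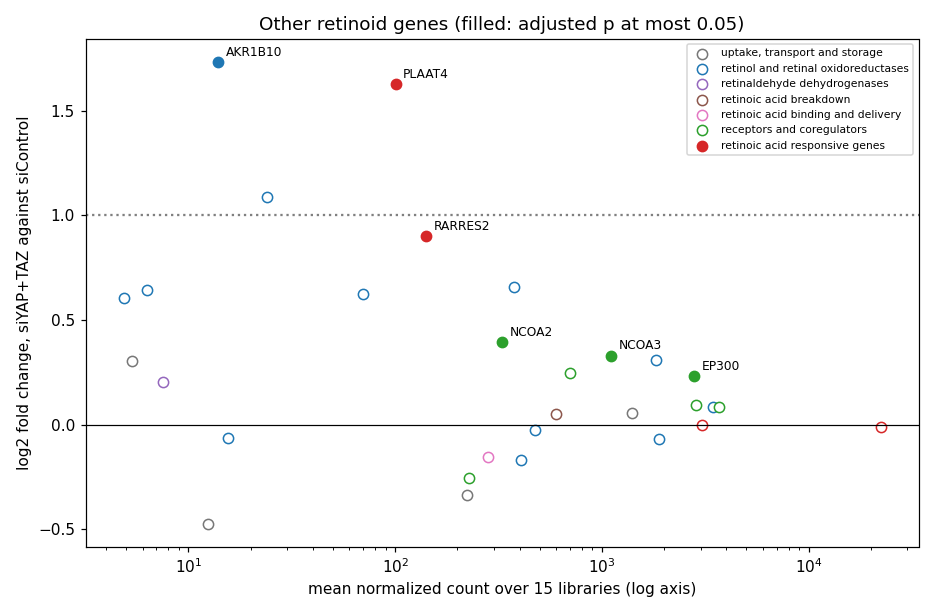
Log2 fold change in siYAP+TAZ against siControl (vertical axis) by mean normalized count over the 15 libraries (horizontal log axis) for the 30 other retinoid genes, coloured by role; filled points passed an adjusted p of 0.05 and the dotted line marks a log2 fold change of 1. The 6 filled points all lie above 0, with AKR1B10 (1.73) and PLAAT4 (1.63) above the dotted line.

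The genes most like ALDH1A3 and DHRS3 over the 15 libraries were found by the root mean square difference of their log2(CPM + 0.5), each less its own siControl mean, among genes averaging 20 or more normalized counts. The added 0.5 CPM shrinks the differences of DHRS3, a low gene, on this scale, so its likeness is to genes with smaller fold changes than its own fitted ones. For ALDH1A3 they were OSBPL5 (0.187), MX1 (0.245), TMEM163 (0.248), NGFR (0.258) and SEMA6B (0.261). For DHRS3 they were SH3PXD2A (0.158), TRIM2 (0.182), BAHCC1 (0.187), TGFBR1 (0.189) and H6PD (0.194). All of these are descriptions over libraries that share depth and group, chosen from 13209 and 13210 genes, and carry no test.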

How the data were processed

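Per the paper's methods, the authors purified polyadenylated RNA, sequenced single reads and trimmed them; the submitters' processing notes name STAR 2.4.2a, DESeq2 and GRCh38. The authors deposited raw read counts per gene and library (count unit, from STAR), a normalized signal (counts over a size factor per library) and log2 values from the rlog transformation. The deposited signal and log2 values entered no result here. The deposited fold changes, p-values and pass marks of the authors' own comparisons were not used. Whether counting used the strand is not given in the sources used here.

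Counts of all 18858 genes and 15 libraries (totals 18696737 to 30107312) were normalized by TMM (factors 0.943 to 1.03) and entered the quasi-likelihood test of edgeR 4.0.16 (R 4.3.3) with robust estimation, 1 coefficient per group and no block. P-values were adjusted by Benjamini-Hochberg over all genes, and a call needed an adjusted p of at most 0.05 and, where both thresholds are named, a log2 fold change of 1 or more in size. Counts per effective library size, times the mean of those sizes, are given as normalized counts. The SE is that of the fitted log2 fold change. Lengths, coordinates and overlaps came from GENCODE 44 on GRCh38, and CPM were divided by the exonic length in kb. The test scripts were tested on simulated data. Alternatives were DESeq2 1.42.0, its size factors in edgeR, library size alone, filterByExpr, no robust estimation, a block by the run of library numbers, and each library left out. The same alternatives were added for the named genes outside the 9 after the data were seen.

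The 9 genes and the gene lists were chosen with earlier results of these data known. Named were all 9 genes, the siRNA targets, the retinoid genes past both thresholds in any comparison, up to 4 others per list by mean level, and the 5 genes most like ALDH1A3 and DHRS3. Some listed genes are not reported here and were left out of the list counts. Protein sequences were not used here.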

Additional observations from a re-analysis of the deposited data

How the results depend on the processing

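The count of tested genes past both thresholds stayed at 0 in siYAP+TAZ against siControl and at 1 in siYAP+TAZ against Control under each of the 6 other fits, and ran from 0 to 1 in both when each library was left out. Among the values of single genes under another setting, 671 kept their direction and side of the threshold, 40 no longer passed, 22 newly passed, 13 turned sign and 4 moved by over 1 SE. With a library left out, the sign of small differences turned. These ran from -0.32 to 0.020 for RDH10 and from -0.062 to 0.17 for CYP26B1 in siYAP+TAZ against siControl, from -0.18 to 0.28 for ALDH1A3 and from -0.44 to 0.21 for DHRS3 in siYAP against siControl, from -0.26 to 0.18 for ALDH1A3 and from -0.15 to 0.49 for DHRS3 in siYAP against Control, and from -0.0078 to 0.15 for RARG in siControl against Control; the cause was not tested. Without library 30 of siYAP+TAZ, ALDH1A3 was 0.69 higher than Control on the log2 scale. The libraries were numbered in runs that hold 1 library of each group, and the labels do not say that a run is a set. Same-run deviations correlated at a median r of 0.42 (30 pairs, -0.054 to 0.65), and 10 of 15 libraries were closest to one of their own run. The median r was -0.35 over the 60 pairs from different runs. Among libraries 26 to 30, r ran from 0.52 to 0.65. With the run as a replicate block, 831 genes in place of 652 passed both thresholds in siYAP+TAZ against siControl, 72 in place of 18 in siYAP and 152 in place of 40 in siTAZ, and the count of tested retinoic acid genes remained 0 in these comparisons. With the block, 261 in place of 140 genes passed against siYAP, 276 in place of 147 against siTAZ and 27 in place of 1 in the interaction. With the block, adjusted p at most 0.05 was newly reached in siYAP+TAZ against siControl by RXRA (9.0e-04), RARA (0.042) and AKR1C3 (1.7e-04), in siYAP against siTAZ by RXRA (0.0037) and ALDH1A3 (0.048), in siYAP by CRABP2 (0.014 against siControl, 0.021 against Control), in siTAZ by RARG against Control (0.014) and PLAAT4 against siControl (3.9e-04), in siYAP+TAZ against Control by RXRA (5.4e-04), and in the interaction by RXRA (0.041), all by edgeR. Low counts limit RARB and DHRS3.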
